A study of Mus musculus with 2 samples.

Results

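The non-muscle actin and myosin genes Myh9, Actn1, Tmsb4x, Actb and Actg1 were examined in maps of KLF4 antibody signal from mouse atherosclerotic lesions. They are 5 of the 21887 protein-coding genes of the mouse RefSeq annotation, GRCm38.p6, and were chosen by their peaks in the WT library, known from earlier results of these data. Every peak whose midpoint lay in the span of one of the genes, or within 10 kb of it, was counted, together with peaks in the pseudogenes named after them with the suffix -ps. The rule found 24 of the 2251 WT peaks and 0 of the 1153 KO peaks. The peak numbers therefore describe how the genes were picked, and no test was made on them.

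The maps came from chromatin immunoprecipitation with sequencing, which recovers the DNA bound to a protein with an antibody and lists the places where reads pile up as peaks. The antibody, sold as GKLF, recognises KLF4, a zinc finger transcription factor. There was 1 library labelled WT and 1 labelled KO, both from C57BL/6 mice on a Western diet and both from frozen BCA tissue with atherosclerotic lesions, which the labels call a mixture of smooth muscle, epithelial, macrophage and other cells. For the KO, the labels name neither the deleted gene nor the cells it was deleted in, and for both groups they leave out the animals' age and number. The title of the series speaks of KLF4 in smooth muscle cells. In such a mixture, a site bound in fewer cells and a site bound less strongly in each cell cannot be told apart. Cell type markers could not be checked, since peaks do not measure expression. Because each group was 1 library, no difference below has a replicate check or a p-value.

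Actin filaments are built from actin monomers. Non-muscle cells use the beta and gamma actins encoded by Actb and Actg1, which are nearly identical proteins, while smooth muscle cells add their own actin, encoded by Acta2. Thymosin beta 4, the product of Tmsb4x, holds monomers in reserve, alpha-actinin 1, the product of Actn1, ties filaments into bundles, and non-muscle myosin IIA, whose heavy chain Myh9 encodes, pulls on them. KLF4 is known in smooth muscle cells as a repressor of contractile genes, which are switched on by serum response factor at a DNA element called the CArG box.

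No WT peak overlapped the promoter window of the 4 genes that have one in the RefSeq table (GRCm38.p6, 250 bases before to 50 after a listed transcript start). The window closest to a peak was that of Actg1, and those of Tmsb4x, which held the highest-scoring peak of the 24, and of Myh9, which held the most peaks, are set beside it. All 3 genes lie on the minus strand, and the sequences read 5′ to 3′ along the gene, at chr11:120348446-120348745 for Actg1, chrX:167209169-167209468 for Tmsb4x and chr15:77842126-77842425 for Myh9. Capitals mark the CArG box in Actg1 and CACCC, on either strand, in Myh9.
Actg1: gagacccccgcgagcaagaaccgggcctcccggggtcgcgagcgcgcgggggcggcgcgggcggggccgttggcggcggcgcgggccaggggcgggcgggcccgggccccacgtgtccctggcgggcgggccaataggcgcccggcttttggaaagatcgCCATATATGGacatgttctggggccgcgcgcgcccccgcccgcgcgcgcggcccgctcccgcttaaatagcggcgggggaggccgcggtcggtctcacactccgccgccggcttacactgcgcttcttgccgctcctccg
Tmsb4x: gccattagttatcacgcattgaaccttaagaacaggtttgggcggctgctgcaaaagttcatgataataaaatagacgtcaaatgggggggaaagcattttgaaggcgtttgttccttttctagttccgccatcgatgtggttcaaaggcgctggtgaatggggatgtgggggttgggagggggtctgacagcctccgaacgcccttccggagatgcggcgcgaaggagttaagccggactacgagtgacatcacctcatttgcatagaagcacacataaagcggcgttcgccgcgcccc
Myh9: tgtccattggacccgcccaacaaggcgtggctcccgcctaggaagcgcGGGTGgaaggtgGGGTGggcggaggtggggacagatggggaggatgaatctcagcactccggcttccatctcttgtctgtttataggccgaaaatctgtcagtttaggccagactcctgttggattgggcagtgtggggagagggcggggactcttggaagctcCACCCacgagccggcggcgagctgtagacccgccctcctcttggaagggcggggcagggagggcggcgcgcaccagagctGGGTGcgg

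Both motifs were searched because CACCC is a core that KLF proteins are known to bind and the CArG box is bound by serum response factor. CACCC, read on both strands, matched 4 times in the Myh9 window and 0 times in those of Actn1, Tmsb4x and Actg1. Of all 32851 promoter windows of this length, 57.5% held it. The GC box GGGCGG, a related element also read on both strands, matched 6 times in Myh9, 6 in Actg1, 4 in Actn1 and 1 in Tmsb4x, and 35.7% of all windows held it. Matches of these motifs may overlap, and each was counted. Among the 4 windows, the CArG box, whose pattern is the same on both strands, was found in Actg1 alone, 90 bases before the listed start. Of all windows, 1.63% held it. Actb had no promoter window to search, so whether it holds any of these motifs is not known from these data. The nearest WT peak lay 0.678 kb from the Actg1 window, 1.12 kb from that of Tmsb4x, 29.1 kb from that of Myh9 and 50.9 kb from that of Actn1. These are matches to letters in a window, and the bases under the peaks themselves were not used here.

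Of the 5 genes, the actin genes carried the most WT peaks per kb of gene span. Actb (gene 11461, chromosome 5, 142903115 to 142907976) held 4 WT peaks in a span of 4.86 kb, so that peaks covered 16.8% of the gene. In order from the lower coordinate, they lay at 142903732 to 142903950 with a score of 424.4, at 142904530 to 142904787 with a score of 388.7, at 142905309 to 142905522 with a score of 69.0 and at 142905564 to 142905690 with a score of 95.5. The score is the authors' peak caller's own value and was taken to rise as a peak's p-value falls (on a scale of -10 log10). Its median over the WT list was 88.3. The pair at the lower-coordinate side thus scored far above the others, at ranks 133 and 150 of the 2251 WT peaks. All 4 lay between 0.726 and 2.51 kb from the lower end of the gene, and none lay in the remaining part. The smallest gap between neighbours was 41 bp.

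Actg1 (gene 11465, chromosome 11, 120345687 to 120348495, minus strand) held 3 WT peaks in 2.81 kb, the highest density of the 5 genes at 1.07 peaks per kb. From the 5′ side, the first lay at 120347663 to 120347768, 0.78 kb after the listed start, and scored 241.9. The next lay at 120347066 to 120347280 and scored 55.6, close to the lowest score of the list, 50. The last lay at 120346306 to 120346483, 0.707 kb from the 3′ end, with a score of 136.1. Peaks covered 17.8% of the gene, a share near that of Actb. Among the 237 protein-coding genes with 2 or more WT peaks in their span, Actg1 ranked 8 and Actb 15 by peaks per kb, whereas Tmsb4x ranked 57, Myh9 122 and Actn1 164. The order of these ranks is also the order of span length, shortest first, so peak density was not separated from gene length.

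Tmsb4x (gene 19241, chromosome X, 167207093 to 167213479, minus strand) carried the single most prominent peak. It lay at 167207258 to 167207538, scored 1667 and stood at rank 19 of the WT list, above 99.2% of WT peaks. With a width of 281 bp it was also the widest of the 24. A second peak lay 385 bp upstream in the direction of transcription, at 167207924 to 167208046, with a score of 129.7. Both lay within 1 kb of the 3′ end of the gene, at 0.305 and 0.892 kb. The span reaches upstream of the listed start at 167209218, and that upstream part held no peak.

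Myh9 (gene 17886, chromosome 15, 77760585 to 77842175, minus strand) held 9 WT peaks in 81.6 kb, and it was 1 of 5 protein-coding genes with 9 or more. No peak lay nearer to the listed start than 29.2 kb. The highest peak of the gene was also the first, at 77812822 to 77813043, and scored 413.0. The next peak followed after a gap of 26.1 kb. A pair of peaks lay there, at 77786490 to 77786689 with a score of 83.2 and at 77785091 to 77785206 with a score of 168.0.

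The other 6 Myh9 peaks lay in a stretch of 10.5 kb towards the 3′ end, from 77764301 to 77774762. Their scores from the 5′ side were 84.4, 87.6, 74.9, 57.1, 167.7 and 94.6. Of these 6, 4 were under the WT median of 88.3, and all 6 scored below the peak at 29.2 kb. Widths over the whole gene were 116 to 252 bp with a median of 200 bp, and the smallest gap was 226 bp.

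Actn1 (gene 109711, chromosome 12, 80167542 to 80260420, minus strand) is the longest of the genes, at 92.9 kb, and its 6 WT peaks were the most widely spaced. They lay between 51.0 and 89.7 kb after the listed start at 80260363. The part of the gene before them held none. From the 5′ side, they scored 97.2 (80209341 to 80209436), 207.4 (80204950 to 80205086), 88.3 (80198981 to 80199070), 196.3 (80183392 to 80183592), 127.3 (80173037 to 80173112) and 104.8 (80170668 to 80170751). All 6 were at or above the median WT score, and the highest and lowest differed less than in any other gene of the set. The median gap was 5.88 kb, against 2.35 kb in Myh9 and 0.521 kb in Actb. Actn1 peaks were also narrow, at 76 to 201 bp with a median of 93 bp.

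**Figure D1:**
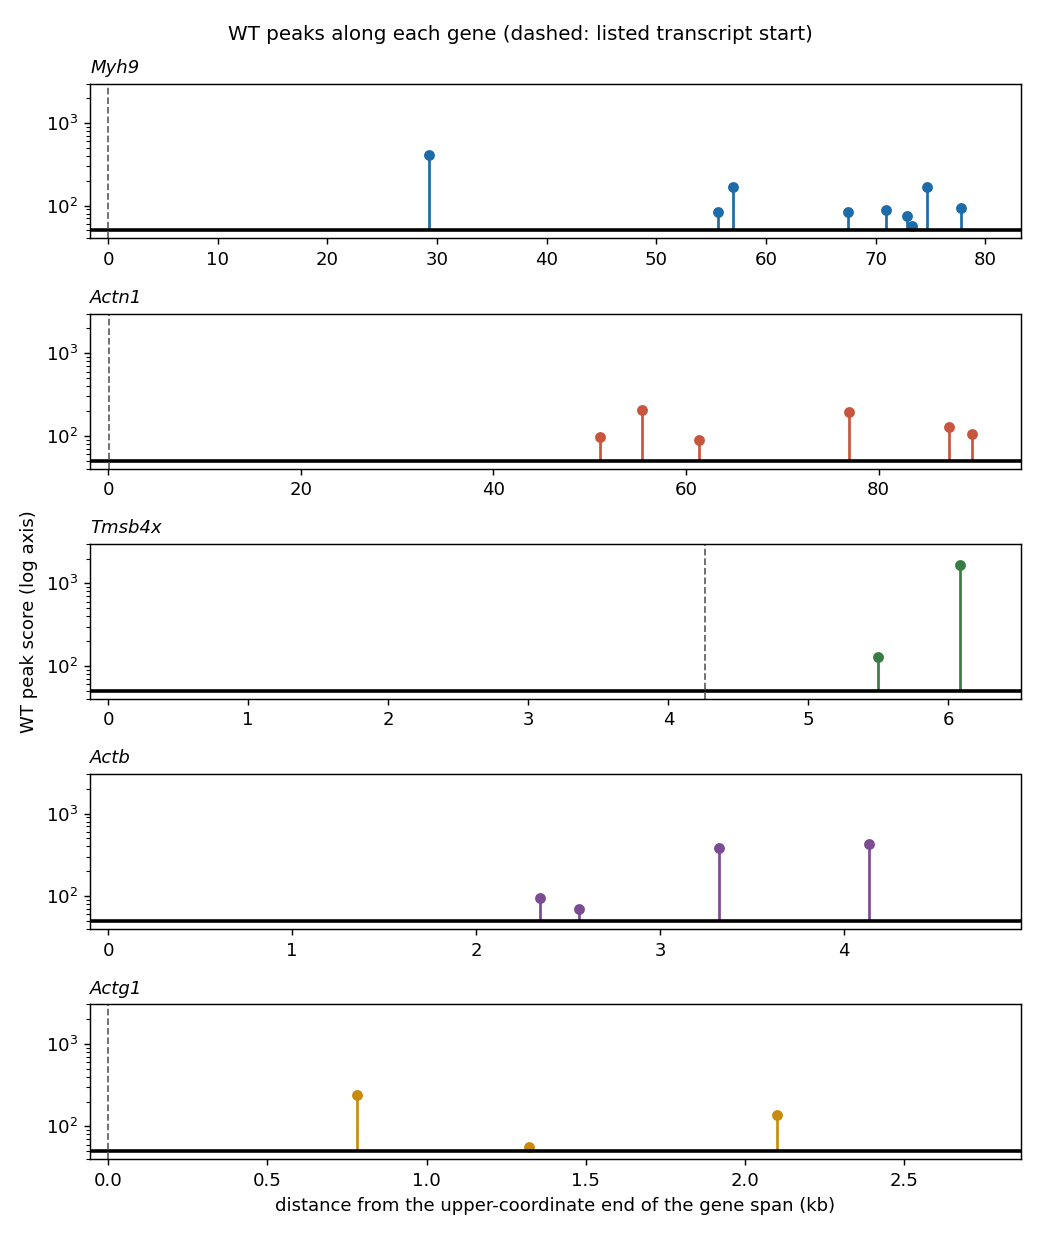
WT peaks along the 5 genes, plotted as the distance of each peak's midpoint from the upper-coordinate end of the gene span (kb, horizontal axis, a separate scale for each gene) against its score (vertical log axis); dashed lines mark the listed transcript start, which is not shown for Actb. In Myh9 and Actn1 the peaks lie away from the start, and the Tmsb4x peak with a score of 1667 stands above the others of the 24.

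All 24 peaks lay inside the gene spans, and no other annotated gene covered any of their midpoints. None overlapped a KO peak, as was the case for 1895 of all 2251 WT peaks, so this does not set the 24 apart. The nearest KO peak lay 308.2 kb from Actg1, 362.4 kb from Actb, 640.1 kb from Myh9, 1.82 Mb from Actn1 and 2.09 Mb from Tmsb4x. The nearest further WT peak outside the 10 kb window was 57.4 kb from Actn1 and at least 390.4 kb from the other genes, so no peak lay just outside the window. The rule used the WT peaks, and 6.22% of protein-coding genes had a WT peak within 10 kb of their span, against 2.34% with a KO peak. Against a share of 2.34%, finding 0 of 5 genes in KO does not set them apart from other genes. All 5 genes held 2 or more WT peaks in their span, as did 1.08% of protein-coding genes, and 4 held 3 or more, as did 0.535%. Where no peak is listed, the signal stayed under the authors' calling threshold, which at an unknown depth does not show that KLF4 was absent.

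The KO list was the shorter, and its median score was 58.1 against 88.3 in WT. Among the 24 peaks, 17 were at or above the WT median and 4 were in the highest 10% of the WT list. Keeping only the 1153 highest WT scores, as many peaks as the KO list has, left 18 of the 24. They were all 6 of Actn1, 5 of Myh9, 3 of Actb, and both of Tmsb4x, with 2 in Actg1. Every one of the genes kept a peak at equal list length. This is a description only, since the genes were picked for their WT peaks and equal length does not equalise depth.

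Widths and scores were compared with those of other WT-only peaks in protein-coding spans, as a description. The 24 peaks had a median width of 184.5 bp (quartiles 121.3 and 214.3) and a median score of 116.0 (quartiles 86.8 and 199.1). The other 1157 WT-only peaks in coding spans had a median width of 154 bp (126 and 187) and a median score of 85.6 (64.0 and 133.9). For the 414 of them in genes with 3 or more peaks, the medians were 156 bp and 99.3. The quartiles overlap in both measures. The 356 WT peaks shared with KO, taken from the whole list and not from coding spans alone, were wider, at a median of 213.5 bp. Their median score was 180.0.

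**Figure D2:**
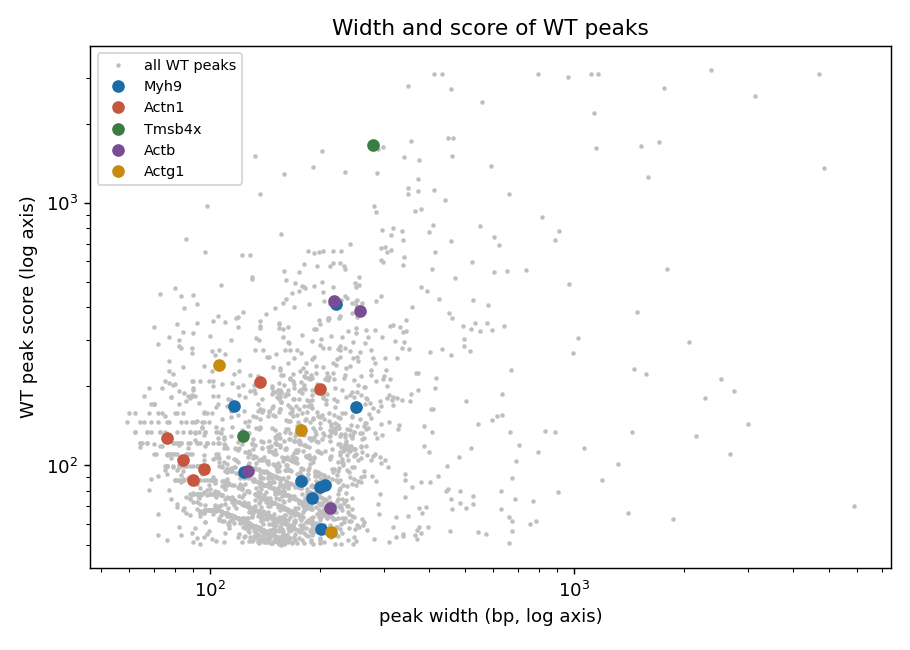
Width (bp, horizontal log axis) and score (vertical log axis) of every WT peak, with all 2251 peaks in grey and the 24 peaks of the 5 genes in colour. The coloured points lie within the cloud of narrow peaks, between 76 and 281 bp, and the green point near the top is the Tmsb4x peak.

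Position along the gene was not used to choose the genes. It was measured from the listed start, at 0%, to the other end of the span, at 100%, for the 4 genes with a start in the table. Of their 20 peaks, 17 lay past the middle of the gene (85.0%, 95% Wilson interval 64.0 to 94.8%) and 10 lay in its last 20% (Wilson interval 29.9 to 70.1%). The median position was 78.8%. It was 87.0% in Myh9, 74.4% in Actn1, 71.8% in Tmsb4x and 47.1% in Actg1, so Actg1 was the only one of the 4 without most of its peaks past the middle. Actg1 also held the only peak within 1 kb of a listed start, at 0.78 kb.

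Other WT-only peaks in coding genes leaned the same way. Of 923 such peaks, 66.5% (63.4 to 69.5%) lay past the middle and 32.8% (29.9 to 35.9%) in the last 20%. In the 84 other genes with 3 or more placed WT peaks, the shares over 300 peaks were 72.0% (66.7 to 76.8%) and 41.0% (35.6 to 46.6%). These intervals overlap those of the 4 genes, which had only 20 peaks. A difference from other multi-peak genes was not tested. Among 221 KO-only peaks the share past the middle was 53.8% (47.3 to 60.3%), and among the shared WT peaks it was 33 of 66 (38.3 to 61.7%). The intervals cover counting error only and take neighbouring peaks of a gene as independent.

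**Figure D3:**
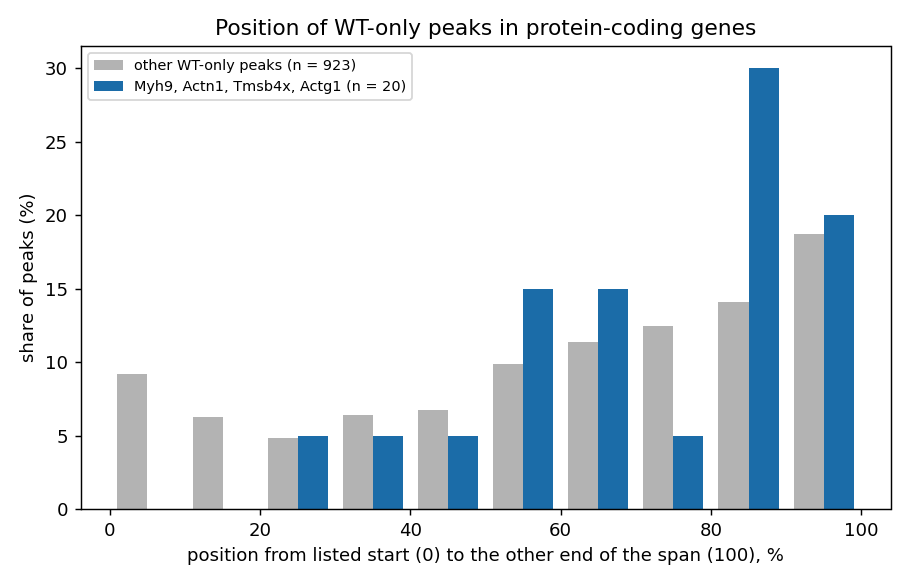
Share of peaks (%) in 10 equal parts of the gene, from the listed start (0) to the other end of the span (100), for the 20 peaks of Myh9, Actn1, Tmsb4x and Actg1 (blue) and for 923 other WT-only peaks in protein-coding genes (grey). Both sets rise towards the far end, and the blue set has no peak in the first 20%.

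Of the pseudogenes named after the actins, 1 of 2 carried peaks. Pseudogenes are disabled gene copies, often made from a spliced messenger RNA. Actg-ps1 (gene 621269, chromosome 8, 46229011 to 46230128) held 3 WT peaks and 0 KO peaks in 1118 bp. They lay at 46229209 to 46229298 with a score of 444.4, at 46229737 to 46229913 with a score of 59.1 and at 46229932 to 46230143 with a score of 129.4. The highest was thus above the highest in Actg1, 241.9, and both gene and copy held 1 peak near the lowest score of the list. Actb-ps1 (chromosome X, 152490237 to 152491652) held no peak, and its nearest WT peak was 56.4 kb away. Of 1646 pseudogenes named in this way for any gene, 4.19% held a WT peak, 0.425% held a KO peak, and 4 held 3 or more WT peaks. No -ps copy of Myh9, Actn1 or Tmsb4x is in the table. No source used here says how reads with several placements were handled, and the sequences of Actb, Actg1 and Actg-ps1 were not compared, so whether their peaks share reads was not tested.

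Other genes of the actin cytoskeleton were also often marked in WT. The 10 lists, arranged by role, held 77 genes beside those above. Of these, 40 had a WT peak within 10 kb (51.9%, 95% Wilson interval 41.0 to 62.7%), compared with 6.22% of all protein-coding genes. The span itself held a peak in 37 of the 40, and in 3.79% of all protein-coding genes. Of the 77, 22 held 2 or more WT peaks in the span, as did 1.08% of all protein-coding genes. In KO, 1 of the 77 had a peak, near the background of 2.34%. It was Myocd, the gene of the serum response factor coactivator myocardin, with a score of 52.3. The median of each gene's highest WT score was 132.1 over the 40, and 97.4 over all protein-coding genes with a WT peak. Myocd, the sole listed gene with a KO peak, had no WT peak, so no listed gene had peaks in both libraries. The lists were drawn up with earlier results of these data known, and gene length and RNA level were not matched.

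Genes that hold or turn over actin monomers were marked most often after the muscle actins and the adhesion genes, at 6 of 9. Here and for the lists below, marked means a WT peak within 10 kb, as found for 6.22% of all protein-coding genes. With peaks in the span alone, the count stayed at 6 of 9, while that of the adhesion genes was 4 of 10. Cfl1, the gene of the filament-severing protein cofilin, had the highest score of all listed genes outside the set, 651.4 on chromosome 19 at 5492499 to 5492805, with 3 peaks in its span. Tmsb10, the close relative of Tmsb4x, had 1 peak that scored 486.6. Pfn1, which encodes the monomer-binding protein profilin 1, had 3 peaks with a highest score of 443.1, the highest of which also lay in the span of Eno3. Pfn2 (307.5), Cap1 and Gsn (99.3 each) made up the rest. Tmsb4x, with 1667, stood above each of these.

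Partners of myosin II were marked at 5 of 9, against 6.22% of all protein-coding genes. Myl6, the gene of an essential light chain, scored 632.3, Rhoa, a small GTPase that controls myosin activity, had 4 peaks and a highest score of 184.8, and the regulatory light chain genes Myl9, Myl12b and Myl12a scored 117.1, 95.46 and 94.95. Among the other myosin II heavy chains, Myh10, the gene of non-muscle myosin IIB, had 1 WT peak with a score of 77.7, where Myh9 had 9. Myh14, a further non-muscle heavy chain gene, and Myh11, the smooth muscle heavy chain gene, had none.

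Crosslinker genes were marked at 4 of 9. Actn4, the other non-muscle alpha-actinin gene, had 4 WT peaks and a highest score of 224.6, close to the 207.4 of Actn1. Actn2, a muscle alpha-actinin gene, had 1 peak with a score of 118.1, and Actn3 had none. The filamin genes Flna and Flnc scored 92.8 and 61.2. Among side-binding genes, 6 of 10 were marked, led by the tropomyosin genes Tpm1, with 6 peaks and a highest score of 347.0, and Tpm2, with 4 and 272.9. Cnn2 (128.0), Cnn3 (120.6), Tpm4 (67.9, with that peak 8.26 kb away in Rab8a) and Tagln (67.5, also in the span of Pcsk7) followed.

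Of the 4 muscle actin genes, 3 had a WT peak. Acta1, the skeletal muscle actin gene, had 2 and a highest score of 401.8, and Actc1, the cardiac actin gene, had 1 with a score of 161.1. Acta2, the smooth muscle actin gene, had 1 that scored 59.6, below the WT median, and Actg2, the enteric smooth muscle actin gene, had none. Together the 7 muscle counterparts, Acta1, Acta2, Actc1, Actg2, Myh11, Actn2 and Actn3, held 5 WT peaks and 0 KO peaks. The 5 genes of the set held 24 and 0, and Tmsb4x among them has no counterpart in the 7. These 5 genes were picked for their peaks, so the contrast was not tested. Of the non-muscle myosin and alpha-actinin genes outside the set, Actn4 held 4 WT peaks, Myh10 1 and Myh14 0. Whether reads were shared between the muscle actin genes and Actb or Actg1 was not tested either.

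Genes that start or extend filaments were marked at 6 of 14. Arpc2 (274.6, 3 peaks), Actr2 (194.4), Actr3 (120.4), Arpc5 (122.1) and Arpc4 (55.7) encode subunits of the Arp2/3 complex, which starts branched filaments, and Enah (136.3) encodes an elongation factor. The copy Actr3-ps, named here after its values were seen, held 3 WT peaks with scores of 121.2 to 137.3 and 0 KO peaks. It is a single picked case, and -ps copies of the other listed genes are not given here. Capping proteins had 1 of 5, Capzb (110.5). Among adhesion and membrane linkers, 7 of 10 were marked. Vim (620.3), the gene of the intermediate filament protein vimentin, Msn (363.6), Itgb1 (354.8) and Vcl (139.1) had peaks in their own spans. The peaks counted for Tln1 (272.9), Pxn (146.2) and Ezr (73.7) lay outside these genes, in Tpm2, Rplp0 and Sytl3. Srf, the serum response factor gene, had 2 peaks with a highest score of 66.2.

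**Figure D4:**
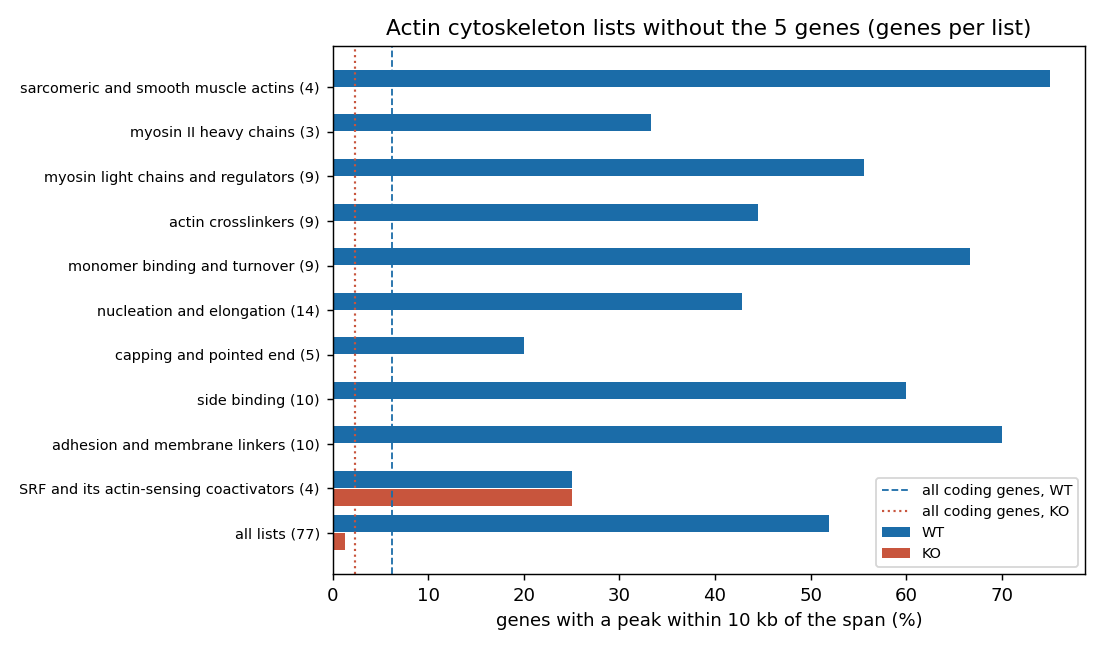
Share of genes (%) with a peak within 10 kb of the span, by list of actin cytoskeleton genes, for WT (blue) and KO (red), with the number of genes in brackets; the lines mark the shares over all protein-coding genes, 6.22% in WT and 2.34% in KO. The blue bars of all 10 lists pass the WT line, and the single red bar of a list comes from Myocd, 1 of 4 genes.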

How the data were processed

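The authors deposited 1 peak list per library, with a score for each peak. Bowtie 1.0, SAMtools 0.1.18 and the mouse build mm10 were used, per the submitters' processing notes, and MACS is named in each peak's identifier. The MACS version, control library and settings were not given in the sources used here, nor was the treatment of duplicates or of reads with several placements. The deposited score was taken as -10 log10 of each peak's p-value, because the lowest is 50, and was used to rank peaks within a list only. The lists hold no read counts, so depth is unknown.

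Gene spans came from RefSeq GRCm38.p6, which shares coordinates with mm10. Listed starts and strands came from RefSeq promoter windows, matched for 17492 of 21887 protein-coding genes, and that of Actb was not used here. Exons were not used, so exonic, intronic and UTR positions are not given. BED starts were moved to 1-based positions. A peak was shared when it overlapped the other list by 1 bp or more.

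The 5 genes and the lists were chosen with earlier results of these data known. Named genes are the 5 genes, their -ps copies, their closest paralogs and every listed gene with a peak in its span, and genes with a peak in the window alone are named to complete counts. Actr3-ps falls outside this rule and was added after its values were seen. Assignment and overlap were tested on simulated peaks. Python 3.11.15, numpy 2.4.6, pandas 2.3.3 and matplotlib 3.10.9 were used. Alternatives covered the gene window, the score limit, the placing of peaks, pseudogene peaks, list length and the overlap rule.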

Additional observations from a re-analysis of the deposited data

How the results depend on the processing

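The count of 24 WT peaks in the 5 genes was the same with the span alone, the span plus 2500 bp or 50 kb, any overlapping base, or peaks in pseudogene spans left out. These settings could not have moved it. All 24 lay inside the spans, no other gene covered their midpoints, and the nearest other WT peak was 57.4 kb from a gene. It was 17 when each list was limited to scores from its median up, and 18 at equal list length. All 24 lacked a KO partner when a KO peak had to cover 50% of the WT peak and when a KO peak within 1 kb sufficed. By the main rule of 1 bp, 1895 of all 2251 WT peaks lacked one too. The KO count in the 5 genes was 0 in every setting run. With no KO peak nearer than 308.2 kb to any of the genes, none of these settings could have given another result. Of the 77 other cytoskeletal genes, 32 to 44 had a WT peak across the settings, against 40. The number with a KO peak, 1, became 4 with the span plus 50 kb (Myl12a, Myl12b, Myocd and Tmsb10) and 0 with the median score limit. The 3 WT peaks on the actin pseudogene became 2 with the median score limit. No paired analysis was possible because each group holds 1 library, and for the same reason no library could be left out. The unknown depth of both libraries limits what a missing peak shows.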
